A study of Mus musculus with 16 samples.

Results

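The 31 genes described here encode the core of B cell receptor signalling, from the receptor's own signalling chains to its kinases, adaptors, lipid enzymes, Ras activators and calcium-dependent transcription factors. They were chosen by name and role, not by measured values, and found through the gene names given with the array's probes, older names included (Prkcb stands there as Prkcb1). All 31 were measurable among the 20514 genes tested. They are covered by 61 probes, of which 57 passed a filter on dim signal. Each gene is represented by its brightest probe, and all 31 chosen probes stood well above background in the sample channel of all 16 arrays, with 0 saturated spots.

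When antigen binds the membrane immunoglobulin, Src family kinases such as Lyn, Blk and Fyn phosphorylate the cytoplasmic tails of CD79A and CD79B, which then recruit and activate Syk. Syk phosphorylates the adaptor BLNK, on which Btk, phospholipase C gamma 2, Vav proteins and Grb2 assemble. From there the signal divides into calcium release and NFAT, protein kinase C and NF-kB through BCL10 and MALT1, the Ras pathway, and PI3 kinase with Akt. In follicular B cells, the resting recirculating B cells of spleen and lymph node follicles, this machinery also supplies the tonic signal on which survival depends.

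RNA came from follicular B cells of C.B17 mice and was measured on two-colour Agilent arrays, with 2 arrays of opposite dye for each of 8 samples. The Auto.Neg group (n = 2) carried the ATA transgenes, VH3609µ with Vk21-5κ, whose receptor recognises Thy-1 on thymocytes, on a Thy-1 knockout background, so that the self-antigen was missing. The Auto.Pos group (n = 2) carried the AGcA transgenes, VH3609µ with a light chain written as Vk19-17κ in one label and Vkappa17-17kappa in another, whose receptor recognises intestinal goblet cells. WT mice (n = 2) carried no transgene by their labels. Single samples of Non-edited and of Edited cells (n = 1 for both) were taken from Thy-1 knockout animals heterozygous for VH3609t and for the Vk21-5 transgene. Editing exchanges a chain of the receptor through renewed gene rearrangement. Auto.Neg and Auto.Pos carry transgenes for both receptor chains, whereas Edited cells have, by their name, exchanged a chain. Auto.Neg, Non-edited and Edited cells share the loss of Thy-1, which Auto.Pos and WT do not have by their labels. Whether samples in 1 group came from different animals is not in the labels, so p-values measure the spread between these samples, which may be technical. Every level below is the log2 ratio of the sample to a reference RNA pooled from 6 cell lines (P388d, DN3, EL4, J558, RS2 and R1), averaged over the arrays of a pair, and every difference is a difference of such log2 ratios.

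Some features of the samples bear on all results. Auto.Neg sample 2 and Auto.Pos sample 1 shared a slide (slide 2), a scan day and the protocol named in the file headers. Over the 31 genes their levels correlated at r = 0.994, against 0.894 within Auto.Neg and 0.908 within Auto.Pos. Auto.Neg sample 1 and Auto.Pos sample 2, which shared that header's other protocol but neither slide nor scan day, correlated at 0.982. The series' own table of ratios, used here only as an alternative, has 10 of 16 columns that match another array better than the one they are labelled with, at absolute correlations of 0.945 to 0.996. They are the columns of Auto.Neg, of WT and of Auto.Pos sample 1. Some match another group, as those of WT sample 2 match Auto.Neg sample 1 and those of Auto.Pos sample 1 match WT sample 1. The labels of the scanner files were used here, and which labels are right was not tested. WT sample 2 had the widest gap between its arrays, a median of 0.57 log2 over these genes against 0.22 to 0.51 in the other samples. The 18 measured B cell markers averaged 4.61 to 5.09 log2 over the reference in the samples. They include Cd79a, Cd79b, Blnk and Blk of the 31 genes. T cell markers (17 measured) averaged -2.80 to -2.17, plasma cell markers (10 measured) -1.92 to -1.27 and NK cell markers (7 measured) -1.11 to -0.21. Markers of other blood cells lay above the reference, at 0.84 to 2.27 for macrophages and monocytes (17 measured), 1.13 to 2.60 for neutrophils (11 measured) and 1.04 to 3.0 for platelets and erythroid cells (10 measured), the last highest in Auto.Pos sample 1. In such bulk RNA, fewer cells of a type and less RNA per cell cannot be told apart. All these marker ratios depend on what the reference lines express, so they do not measure purity.

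Sequences are shown for the features on which the findings turn: the probe of Cd79a, the gene with the widest spread, and a pair of probes of Pik3r1 that disagree. Each is 60 bases, 5′ to 3′ as the array files give it, placed on mouse build mm7. Cd79a's probe covers chr7:21688822-21689079 on the plus strand, a span of 258 bases, so that it crosses a gap in the genome. The brightest Pik3r1 probe lies at chr13:98794799-98794858 and the other at chr13:98797997-98799039, a span of 1043 bases, both on the minus strand. No annotation of that build was used here, so exon and UTR positions are not given.
Cd79a brightest probe: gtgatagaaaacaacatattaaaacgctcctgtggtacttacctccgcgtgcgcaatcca
Pik3r1 brightest probe: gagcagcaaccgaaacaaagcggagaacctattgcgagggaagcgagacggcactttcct
Pik3r1 probe across a gap: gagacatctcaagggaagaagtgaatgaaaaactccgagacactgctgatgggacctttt

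Promoters are shown for 3 genes that were low together in both samples of slide 2, Cd79a, Btk and Vav1. They are the 250 bases before the start site from RefSeq on GRCm38.p6, which held a promoter for 25 of the 31 genes. Cd79a's is chr7:24897247-24897496 (plus strand), Btk's chrX:134583141-134583390 (minus strand) and Vav1's chr17:57278850-57279099 (plus strand). Capitals mark GAGGAA (the core bound by PU.1, on either strand) and CCCNNGGG (the core bound by EBF1).
Cd79a promoter: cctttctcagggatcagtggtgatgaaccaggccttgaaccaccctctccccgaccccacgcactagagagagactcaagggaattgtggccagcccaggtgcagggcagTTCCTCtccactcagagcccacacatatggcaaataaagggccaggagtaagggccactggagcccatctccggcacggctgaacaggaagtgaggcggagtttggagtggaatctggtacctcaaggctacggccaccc
Btk promoter: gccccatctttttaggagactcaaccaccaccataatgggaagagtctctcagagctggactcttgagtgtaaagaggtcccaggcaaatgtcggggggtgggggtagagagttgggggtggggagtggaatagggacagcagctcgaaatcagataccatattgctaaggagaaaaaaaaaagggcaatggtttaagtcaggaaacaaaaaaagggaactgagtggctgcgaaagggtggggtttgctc
Vav1 promoter: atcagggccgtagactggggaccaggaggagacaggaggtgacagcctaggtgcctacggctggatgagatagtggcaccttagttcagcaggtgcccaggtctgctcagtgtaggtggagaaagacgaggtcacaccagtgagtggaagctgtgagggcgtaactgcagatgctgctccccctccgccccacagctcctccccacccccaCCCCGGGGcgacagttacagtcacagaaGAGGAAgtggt
GAGGAA was present in 8 of 36 promoters of these genes (22.2%) and in 23.3% of all 32851 promoters in the table. CCCNNGGG was present in 7 of 36 (19.4%) and in 11.8% of all. The octamer ATGCAAAT, bound by POU factors and searched on both strands, was present in 2 of 36 (5.56%), those of Blnk and Prkcb, and in 1.6% of all. These are matches of letters in a window, not sites of binding.

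Most of the pathway stood far above the reference pool. Of the 31 genes 25 were above the reference in all 8 samples, 17 were at least 4-fold above it in every sample, and 20 had a mean ratio in the top 10% of genes. The order of these ratios depends on what the reference lines express, so it is no order of transcript abundance. Fyn and Sos1 were below the reference in all 8 samples.

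**Figure D1:**
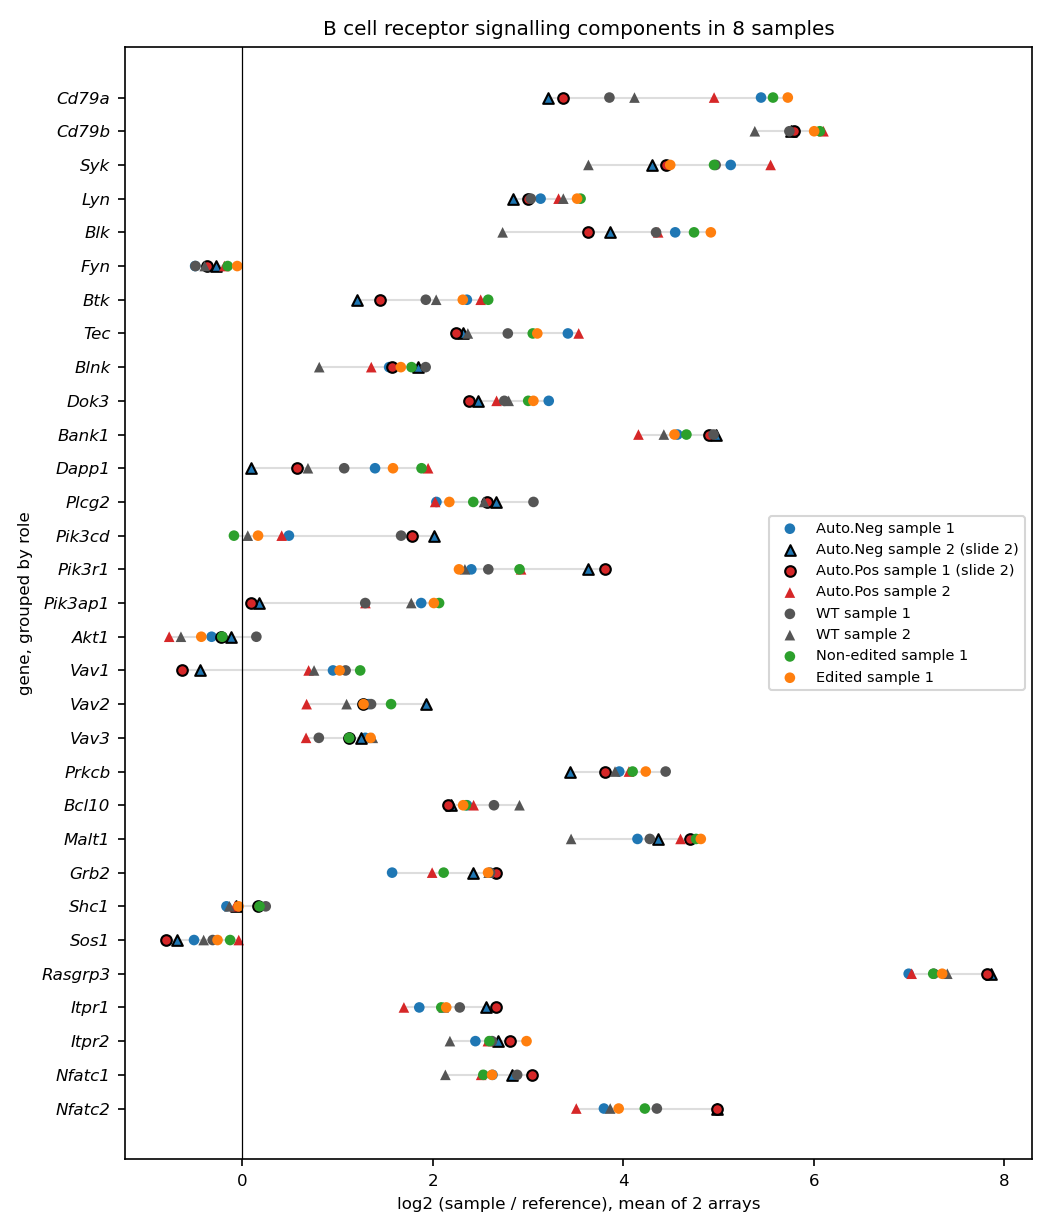
Levels of the 31 genes as log2 of sample over reference (horizontal axis), 1 row a gene, ordered by role; each point is a sample (mean of 2 arrays), coloured by group, with circles for sample 1, triangles for sample 2 and black outlines for the samples of slide 2. Rasgrp3 lies furthest to the right in every sample, and the outlined samples lie together, at the low end for Cd79a, Btk, Pik3ap1 and Vav1 and at the high end for Pik3r1 and Nfatc2.

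The receptor's signalling chains differed in their spread. Cd79b, the partner chain of the heterodimer, kept between 5.38 (WT sample 2) and 6.10 (Auto.Pos sample 2) in all 8 samples, and its SD within groups was 0.19. Cd79a measured 5.45 and 3.21 for Auto.Neg, 3.37 and 4.95 for Auto.Pos, 3.85 and 4.12 for WT, 5.57 for Non-edited and 5.73 for Edited cells. Its samples of slide 2 were the lowest of the 8, and its SD within groups of 1.12 was the largest of the 31 genes. Cd79b's steadiness holds for the mean of a dye pair only, since its arrays of opposite dye differed by 2.05 to 2.91 log2 in every sample. It was the only one of the 31 with such a gap of over 2 in all 8 samples.

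Among the kinases, Syk, which binds the phosphorylated chains, ranged from 3.63 (WT sample 2) to 5.55 (Auto.Pos sample 2), and its WT samples differed by 1.34. On their brightest probes the Src family kinases fell into a steady pair and a variable member. Lyn, which both starts and restrains the signal, lay between 2.84 and 3.55, and Fyn between -0.50 and -0.05 with the smallest SD within groups of all (0.12). Lyn's second kept probe was not steady and ran from 1.87 (Auto.Neg sample 2) to 4.12 (Non-edited). Blk lay between 2.73 (WT sample 2) and 4.92 (Edited). In WT sample 2 the arrays of the pair disagreed by 2.65 log2 for Blk, so its low value there rests on arrays that differ. The Tec family kinases Btk and Tec were split by slide within the groups: Btk measured 2.36 and 1.20 for Auto.Neg against 1.45 and 2.50 for Auto.Pos, and Tec 3.42 and 2.32 for Auto.Neg against 2.24 and 3.53 for Auto.Pos.

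Of the adaptors, Blnk, the scaffold for Btk and phospholipase C, ranged from 0.81 to 1.92 with its lowest value in WT sample 2. Bank1, which links Lyn to calcium release, ranged from 4.16 to 4.97 and Dok3, an inhibitory adaptor, from 2.38 to 3.22. Dapp1, which binds PI3 kinase lipids, spread further, from 0.09 in Auto.Neg sample 2 to 1.95 in Auto.Pos sample 2. Plcg2, the phospholipase that makes the messengers for calcium and protein kinase C, ranged from 2.02 to 3.06.

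The PI3 kinase branch held some of the widest spreads. Pik3cd, the catalytic subunit p110 delta, measured 0.49 and 2.01 for Auto.Neg, 1.79 and 0.41 for Auto.Pos, and 1.67 and 0.06 for WT, with -0.09 for Non-edited and 0.16 for Edited cells. On this probe each of the 3 replicated groups had a sample near the reference and a sample well above it, but its arrays of opposite dye differed by 0.29 to 2.05 log2. The other kept probe of Pik3cd did not show this split, at 0.41 and -0.21 for Auto.Neg, -0.17 and 0.12 for Auto.Pos, and 0.0041 and -0.0087 for WT. On their brightest probes Pik3r1, the regulatory subunit p85 alpha, and Pik3ap1, the adaptor BCAP that couples the receptor to it, moved in opposite ways between the samples of Auto.Neg and Auto.Pos. Pik3r1 ranged from 2.27 to 3.81 and Pik3ap1 from 0.09 to 2.07. Another Pik3r1 probe moved as Pik3ap1 did, at 1.01 and -0.97 for Auto.Neg and -0.95 and 0.77 for Auto.Pos. So did the probe across a gap (0.33 and -0.11, then 0.01 and 0.52). The remaining Pik3r1 probe moved as the brightest did (0.89 and 1.28, then 1.36 and 0.73). Akt1, the kinase downstream, stayed near the reference, between -0.77 and 0.15.

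The Vav proteins activate Rac. Vav1 measured -0.44 and -0.63 in the samples of slide 2 and between 0.70 and 1.24 in the other 6. Vav2 ranged from 0.67 to 1.93 and Vav3 from 0.67 to 1.37. In the branch to NF-kB, Prkcb (protein kinase C beta) ranged from 3.44 to 4.44, Bcl10 from 2.16 to 2.91 and Malt1, a protease, from 3.45 (WT sample 2) to 4.81.

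Rasgrp3, a Ras activator that answers diacylglycerol, was the most enriched of the 31 genes over the reference, at 7.0 and 7.86 for Auto.Neg, 7.82 and 7.03 for Auto.Pos, 7.26 and 7.40 for WT, 7.25 for Non-edited and 7.35 for Edited cells. The general Ras adaptors differed less from the reference: Grb2 ranged from 1.57 to 2.66, Shc1 from -0.17 to 0.25 and the exchange factor Sos1 from -0.80 to -0.04. Of the calcium branch, the IP3 receptors Itpr1 and Itpr2 ranged from 1.70 to 2.66 and from 2.18 to 2.98. The transcription factors Nfatc1 and Nfatc2 ranged from 2.13 to 3.04 and from 3.51 to 4.98.

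Much of the spread within Auto.Neg and Auto.Pos ran along the slide. The samples of a group differed by a median of 0.62 log2 over the 31 genes in Auto.Neg, 0.67 in Auto.Pos and 0.38 for WT, whereas the samples of different groups on slide 2 differed by 0.14 and Auto.Neg sample 1 and Auto.Pos sample 2 by 0.29. Over all genes the same medians were 0.37, 0.37, 0.30, 0.12 and 0.21. Both samples of slide 2 were the lowest of the 8 for 11 genes (Cd79a, Lyn, Btk, Tec, Pik3ap1, Vav1, Prkcb, Bcl10, Dok3, Sos1 and Dapp1) and the highest for 5 (Pik3cd, Pik3r1, Rasgrp3, Itpr1 and Nfatc2). That is 51.6% of the 31 and 38.9% of all genes, with 35.5% lowest and 16.1% highest here against 11.4% and 27.6% of all genes. The lists hold for the brightest probes. On another kept probe the samples of slide 2 were the lowest of the 8 for Pik3cd (-0.21 and -0.17) and for Pik3r1 (-0.97 and -0.95). Itpr1's second probe, at 2.28 and 2.54, was not highest there (Non-edited 2.61). Vav1's second probe was again lowest there (0.11 and 0.02), but Bcl10's second probe was highest there (6.03 and 5.90). On further kept probes of Lyn, Tec, Pik3ap1, Prkcb and Dapp1 the samples of slide 2 were not both the lowest. For Lyn they stood at 1.87 and 2.14 beside 2.01 in WT sample 2, and for Tec at 0.83 and 0.57 beside 0.79. Macrophage and monocyte markers averaged 2.16 and 2.27 in the samples of slide 2, against 1.10 in Auto.Neg sample 1 and 1.52 in Auto.Pos sample 2, and their part in the gaps between samples was not tested. Slide and scan day cannot be told apart for this pair of samples. WT sample 1, on another slide and scan day, had the same protocol, and the part of the protocol in these gaps was not tested.

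**Figure D2:**
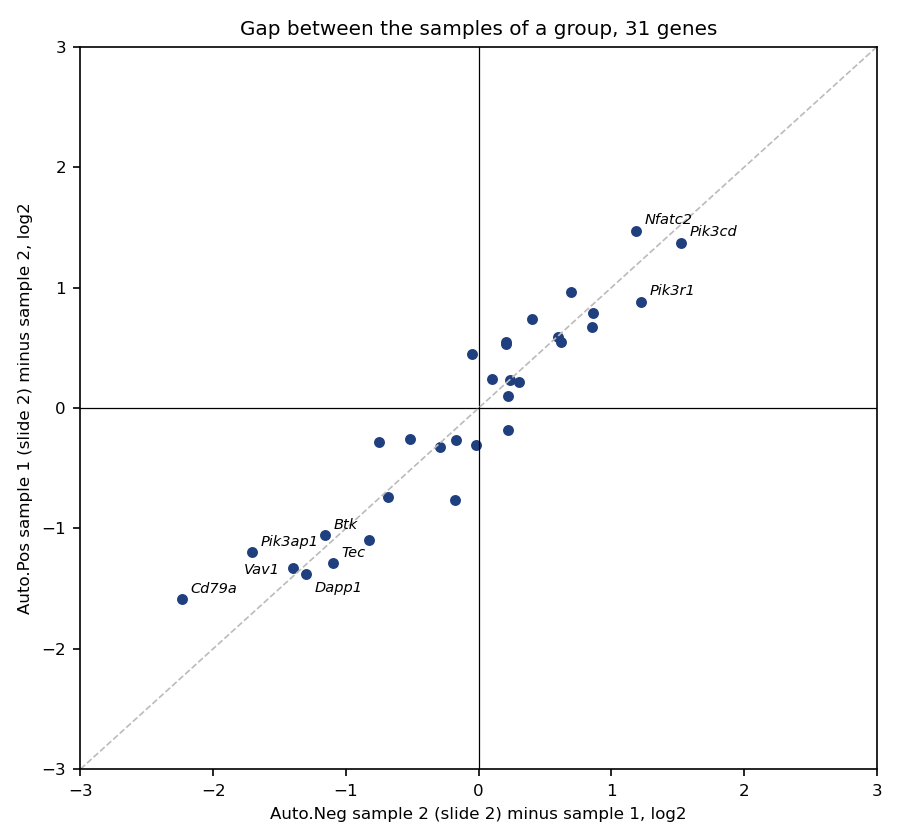
Gap between the samples of a group for each of the 31 genes in log2: Auto.Neg sample 2 minus sample 1 (horizontal) against Auto.Pos sample 1 minus sample 2 (vertical), so that the sample of slide 2 comes first in both; the dashed line marks equality. The gaps had the same sign for 29 of 31 genes (93.5%, against 80.3% of all genes), from Cd79a at the lower left to Pik3cd and Nfatc2 at the upper right (r = 0.945 over the 31 genes, a description with no test).

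Auto.Pos against Auto.Neg compares cells whose self-antigen is present with cells whose self-antigen is missing. The groups also differ in light chain, in what the receptor recognises and in Thy-1 genotype, and these cannot be told apart from the antigen. None of the 31 genes passed limma's test at an adjusted p under 0.05, where 3 of 20514 genes did (0.0146%), and 0 were at an unadjusted p under 0.05 (1.04% of all genes). The differences ran from -0.66 to 0.52 with a median of 0.019, beside 0.017 over all genes, and 16 were above 0 and 15 below. In 4 of 31 genes (12.9%) the samples of the groups did not overlap, against 19.2% of all genes.

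Vav2 had the largest difference of the 31. It measured 1.33 and 1.93 for Auto.Neg against 1.27 and 0.67 for Auto.Pos, so that both Auto.Pos samples lay below both Auto.Neg samples. The difference was -0.66 (SE 0.33; 95% interval -1.49 to 0.18; adjusted p = 1.00 by limma), it was -0.66 within slide 2, and it ran from -0.96 to -0.36 when single samples were left out. Vav3 measured 1.29 and 1.24 for Auto.Neg against 1.12 and 0.67 for Auto.Pos, and Malt1 4.15 and 4.37 for Auto.Neg against 4.70 and 4.60 for Auto.Pos. Neither overlapped between the groups, with differences of -0.37 (SE 0.29) and 0.39 (SE 0.32), and within slide 2 they were -0.12 and 0.33. Cd79b was the remaining gene without overlap, at 0.18 (SE 0.23) and 0.03 within slide 2. Dapp1 measured 1.39 and 0.09 for Auto.Neg against 0.58 and 1.95 for Auto.Pos, a difference of 0.52 (SE 0.63) with overlapping samples. Pik3r1, at 2.40 and 3.63 for Auto.Neg against 3.81 and 2.93 for Auto.Pos, differed by 0.35 (SE 0.51). Pik3ap1, at 1.88 and 0.17 for Auto.Neg against 0.09 and 1.29 for Auto.Pos, differed by -0.33 (SE 0.69). Dapp1, Pik3r1 and Pik3ap1 changed sign when 1 of the samples was left out. Platelet and erythroid markers were higher in Auto.Pos for 6 of 10 genes and lower for 4 (median 0.26, from -0.38 to 2.69). The most extreme was Ppbp, at 2.63 and 2.91 for Auto.Neg against 6.86 and 4.06 for Auto.Pos. The part of these markers in the differences of the 31 genes was not tested.

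Auto.Pos against WT compares cells that carry the transgenes of an autoreactive receptor with a normal repertoire. The transgenes and the autoreactivity of the receptor cannot be told apart here. None of the 31 genes passed the adjusted threshold, as 0 of all genes did (0%), and 0 were at an unadjusted p under 0.05 (5.63% of all genes). The differences ran from -0.89 to 0.91, with a median of -0.0067 beside 0.065 over all genes, 15 above 0 and 16 below. Of the 31 genes 7 (22.6%) did not overlap between the groups, against 29.6% of all.

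Malt1 came closest to the threshold. It measured 4.70 and 4.60 for Auto.Pos against 4.28 and 3.45 for WT, so that both Auto.Pos samples were higher than both WT samples. The difference was 0.79 (SE 0.32; 95% interval -0.03 to 1.61; adjusted p = 0.904 by limma), and without WT sample 2 it was 0.37. With scale normalization between arrays Malt1 was at -0.051 and Syk at -0.14, so the direction of both turned. Pik3r1 measured 3.81 and 2.93 for Auto.Pos against 2.58 and 2.34 for WT, a difference of 0.91 (SE 0.51) that fell to 0.47 without Auto.Pos sample 1. Vav1 was lower in both Auto.Pos samples, at -0.63 and 0.70, than in WT, at 1.08 and 0.75. Its difference of -0.89 (SE 0.64) rested on Auto.Pos sample 1, without which it was -0.22. Pik3ap1 at 0.09 and 1.29 for Auto.Pos against 1.29 and 1.77 for WT differed by -0.84 (SE 0.69), and by -0.24 without the same sample. Syk at 4.45 and 5.55 for Auto.Pos against 4.97 and 3.63 for WT differed by 0.70 (SE 0.62), and by 0.03 without WT sample 2. Plcg2 at 2.57 and 2.02 for Auto.Pos against 3.06 and 2.54 for WT differed by -0.50 (SE 0.35), and by -0.22 without Auto.Pos sample 2. The remaining genes without overlap were Bcl10 at -0.48, Cd79b at 0.39, Dok3 at -0.25 and Fyn at 0.16. Of 17 macrophage and monocyte markers 12 were lower in Auto.Pos than in WT (median -0.34) and of 10 plasma cell markers 8 (median -0.49), and their part in these differences was not tested.

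The scan day changed the calls of this comparison. Scan day 3 held Auto.Pos sample 2 and WT sample 2, and with scan day as a random block (limma, estimated correlation 0.917) 11 of the 31 genes (35.5%) passed the adjusted threshold, beside 4185 of all genes (20.4%). The genes that passed were higher in Auto.Pos for Malt1 (1.08, adjusted p = 0.0112), Syk (1.72, adjusted p = 0.0192), Cd79b (0.66), Blk (1.45), Dapp1 (1.15), Tec (1.05) and Itpr2 (0.37). They were lower for Bcl10 (-0.48, adjusted p = 0.0204), Plcg2 (-0.53), Grb2 (-0.57) and Vav3 (-0.60). Without the block the differences of several were smaller, at 0.46 for Blk, 0.38 for Dapp1, 0.31 for Tec, -0.27 for Grb2 and -0.19 for Vav3. All 5 of these changed sign when 1 sample was left out: Blk (-0.35) and Vav3 (0.09) without WT sample 2, and Dapp1 (-0.30), Tec (-0.33) and Grb2 (0.07) without Auto.Pos sample 2. The correlation was estimated with 3 residual degrees of freedom and applied to every gene, and day 3 was the only scan day that held both groups. Within scan day 3 alone Malt1 differed by 1.15, Syk by 1.91, Blk by 1.63, Bcl10 by -0.48 and Plcg2 by -0.51. Further kept probes, without the block, gave 1.57 for Bcl10 and -0.14 for Dapp1, of opposite sign to the brightest. They gave -0.04 for Grb2, 0.36 for Malt1 and 0.37 for Tec, and values of both signs for Itpr2. Plcg2's arrays of opposite dye differed by 1.13 to 1.70 log2 in every sample. The same block called 0 of the 31 genes in Auto.Pos against Auto.Neg (0.19% of all genes) and 0 in Auto.Neg against WT (2.19% of all genes).

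Auto.Neg against WT compares cells with a receptor that lacks its antigen with a normal repertoire, and it shares the WT samples with the comparison above. The transgenes, the missing antigen and the Thy-1 knockout cannot be told apart here. None of the 31 genes passed the adjusted threshold, as 0 of all genes did (0%), and 0 were at an unadjusted p under 0.05 (4.6% of all genes). The differences ran from -0.66 to 0.66 with a median of 0.082 beside 0.044 over all genes, 20 above 0 and 11 below. In 4 of 31 genes (12.9%) the groups did not overlap, against 25% of all.

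Bcl10, the adaptor that binds MALT1, measured 2.36 and 2.19 for Auto.Neg against 2.64 and 2.91 for WT. Both Auto.Neg samples were lower than both WT samples, with a difference of -0.50 (SE 0.22; 95% interval -1.05 to 0.05; adjusted p = 1.00 by limma). Grb2 measured 1.57 and 2.43 for Auto.Neg against 2.60 and 2.59 for WT, without overlap, a difference of -0.59 (SE 0.38) that was -0.17 without Auto.Neg sample 1. Its second probe gave -0.27. Cd79b and Sos1 were the others without overlap, at 0.21 and -0.24. Blk at 4.54 and 3.86 for Auto.Neg against 4.34 and 2.73 for WT differed by 0.66 (SE 0.62), and by -0.14 without WT sample 2. Vav1 at 0.95 and -0.44 for Auto.Neg against 1.08 and 0.75 for WT differed by -0.66 (SE 0.64). Pik3ap1 at 1.88 and 0.17 for Auto.Neg against 1.29 and 1.77 for WT differed by -0.51 (SE 0.69), and Pik3r1 at 2.40 and 3.63 for Auto.Neg against 2.58 and 2.34 for WT by 0.56 (SE 0.51). Vav1, Pik3ap1 and Pik3r1 overlapped between the groups, and all 3 changed sign without Auto.Neg sample 2 (0.03, 0.35 and -0.06). The groups shared neither a slide nor a scan day. Macrophage and monocyte markers were lower in Auto.Neg for 16 of 17 genes (median -0.53) and platelet and erythroid markers for 9 of 10 (median -0.31), and their part in these differences was not tested.

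**Figure D3:**
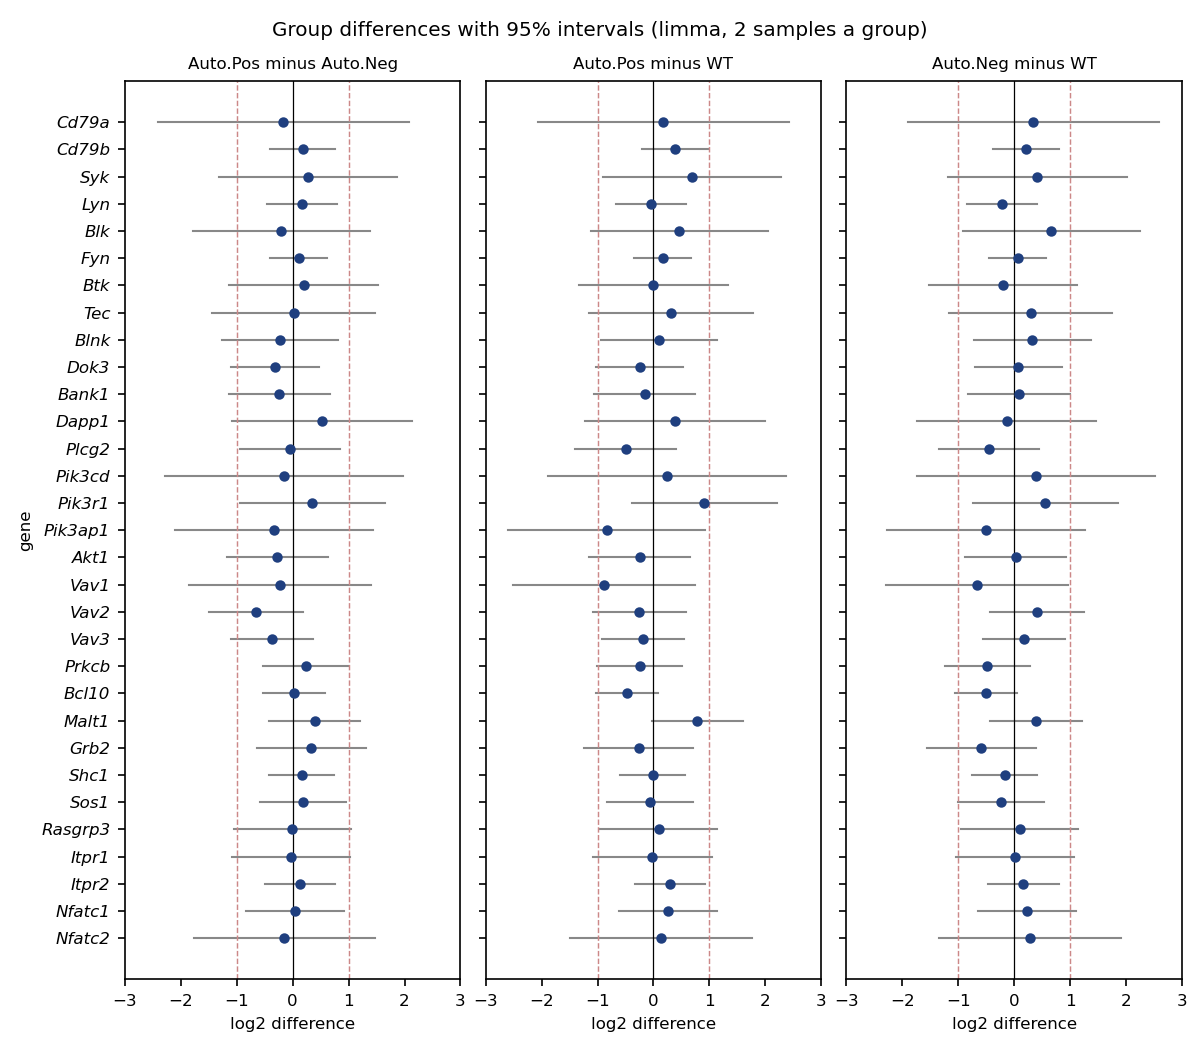
Difference in log2 between groups for the 31 genes (points) with limma's 95% intervals (bars), in 3 panels for the 3 comparisons of 2 samples against 2; dashed lines mark a 2-fold difference either way. Every interval crosses 0, and they are narrowest for Fyn (0.51 either side) and widest for Cd79a (2.25 either side).

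How far these data bound a change differed greatly between the genes. The median 95% interval reached 0.91 log2 to either side. Intervals lay wholly within a 2-fold change for 10 of 31 genes in Auto.Pos against Auto.Neg, for 7 in Auto.Pos against WT and for 9 in Auto.Neg against WT. For Cd79a the interval of Auto.Pos minus Auto.Neg ran from -2.41 to 2.08, which does not show that the groups were alike. For Fyn it ran from -0.40 to 0.61.

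Probes of the same gene were compared where a gene had more than 1. There were 26 further kept probes for 18 genes, and their difference had the sign of the brightest probe's for 18 of 26 in Auto.Pos against Auto.Neg, 13 of 26 in Auto.Pos against WT and 15 of 26 in Auto.Neg against WT. Bcl10's probes disagreed most. The second, at chr3:145822221-145822280 (mm7), lies upstream of the brightest at chr3:145831046-145831105 and was designed from another transcript record. It measured 4.96 and 6.03 for Auto.Neg, 5.90 and 3.90 for Auto.Pos, 4.84 and 1.82 for WT, 4.46 for Non-edited and 4.30 for Edited cells, so that WT sample 2 stood alone at the bottom. It gave 1.57 in Auto.Pos against WT and 2.17 in Auto.Neg against WT, where the brightest gave -0.48 and -0.50, and neither probe passed the threshold in a fit over 29640 probes. For Pik3r1 in Auto.Pos against WT, the probe across a gap shown above gave -0.68 and the other probes -0.07 and -0.04, against 0.91 for the brightest. Vav1's second probe gave -0.34 against -0.89, Pik3ap1's other probes -0.20 and -0.09 against -0.84, and Malt1's second probe 0.36 against 0.79. For Vav2 in Auto.Pos against Auto.Neg, the second probe measured -1.06 and -0.17 for Auto.Neg against -0.39 and -1.38 for Auto.Pos. These samples overlapped, and the difference was -0.27 (SE 0.62) against -0.66 for the brightest. Dapp1's second probe gave 0.016 in the same comparison, against 0.52.

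**Figure D4:**
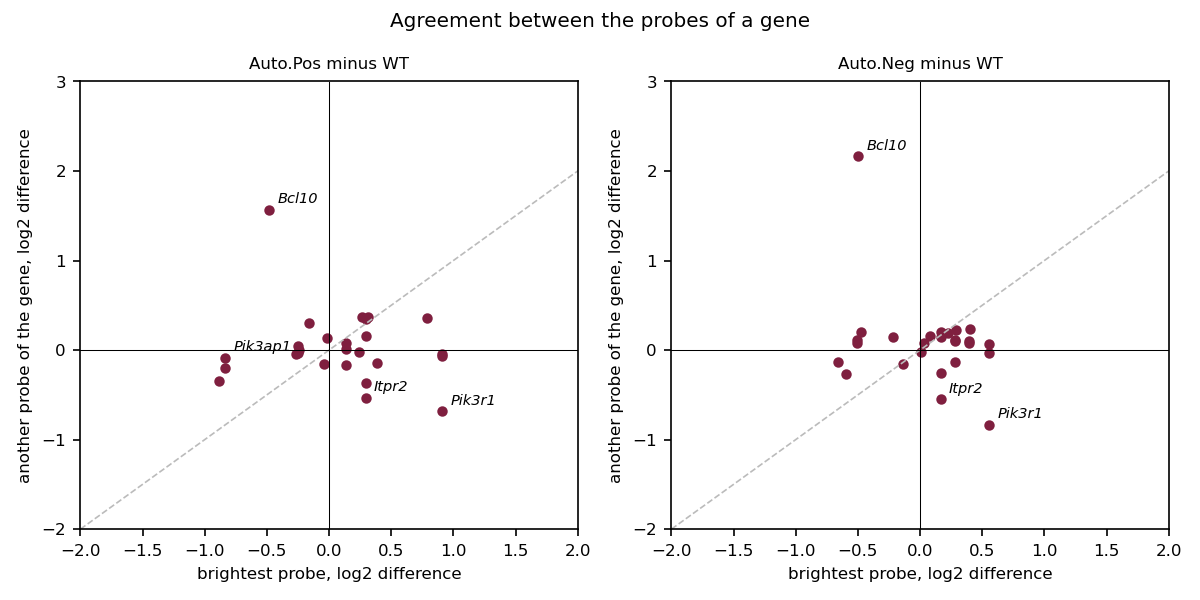
Difference in log2 of each further probe (vertical) against that of the brightest probe of the same gene (horizontal), for Auto.Pos minus WT (left) and Auto.Neg minus WT (right); each point is 1 of 26 probes and the dashed line marks equality. Bcl10's second probe stands far above the line in both panels (1.57 and 2.17), and a Pik3r1 probe far below it (-0.68 and -0.83).

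Edited and Non-edited cells were 1 sample each, so their difference has no replicate check. A limma fit that borrowed its spread from the replicated groups called 0 of the 31 genes and 0 of all genes (0 and 241 at an unadjusted p under 0.05). None of the 31 genes reached a 2-fold difference in both dyes, where 284 of 20514 genes did (1.38%). The differences, Edited minus Non-edited, ran from -0.64 to 0.47 with a median of -0.037, beside -0.028 over all genes, and 22 of 31 had the same sign in both dyes. Pik3r1 measured 2.91 for Non-edited and 2.27 for Edited cells, a difference of -0.64 (-0.56 and -0.71 in the separate dyes). Its other 3 probes gave -0.08, -0.39 and -0.16. Grb2 measured 2.11 and 2.58 (0.47; 0.70 and 0.23), Syk 4.95 and 4.49 (-0.46; -0.44 and -0.48) and Itpr2 2.59 and 2.98 (0.39; 0.53 and 0.25). Dapp1 measured 1.88 and 1.58 (-0.30; -0.35 and -0.25), and Vav2 1.56 and 1.27 (-0.29; -0.44 and -0.14). T cell markers were lower in Edited cells for 15 of 17 genes (median -0.45), and their part in these differences was not tested.

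**Figure D5:**
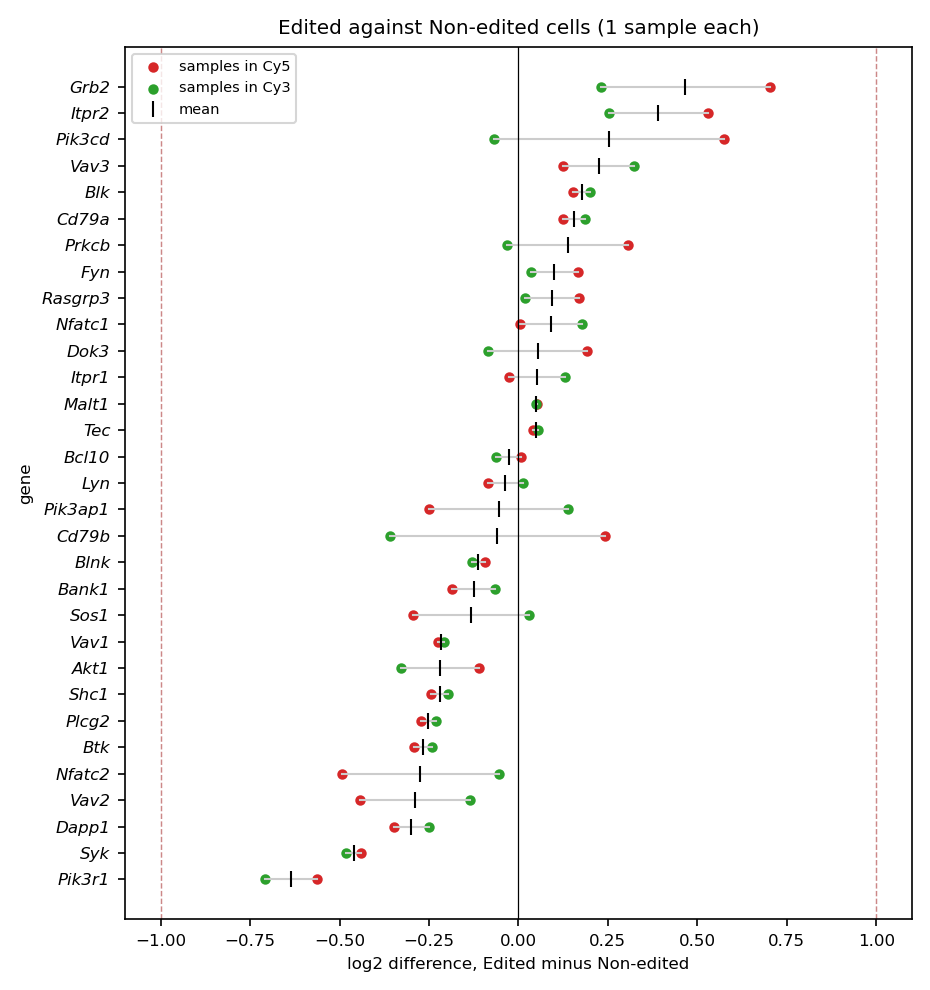
Edited minus Non-edited difference in log2 for the 31 genes, ordered by the mean (black tick), with the value from arrays holding the samples in Cy5 (red) and in Cy3 (green); dashed lines mark a 2-fold difference. No point reaches a dashed line, and the ends of the order, Pik3r1 (-0.64) and Grb2 (0.47), keep their side of 0 in both dyes.

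Of 94 other genes of the pathway, 91 were tested, and 0 passed limma's adjusted threshold in each of the 3 replicated comparisons. At an unadjusted p under 0.05 there were 0 in Auto.Pos against Auto.Neg (1.04% of all genes), 10 in Auto.Pos against WT (11%, against 5.63% of all genes) and 6 in Auto.Neg against WT (6.59%, against 4.6% of all genes). In Auto.Pos against WT the largest differences were in Cd72, an inhibitory coreceptor, and Lck, a Src family kinase known from T cells. Cd72 measured 0.62 and 0.92 for Auto.Pos against 2.69 and 2.76 for WT (-1.96, SE 0.38, adjusted p = 0.437) with 2.13 and 1.10 in Auto.Neg. Lck measured -1.40 and -1.58 for Auto.Pos against -0.24 and -0.15 for WT (-1.30, SE 0.19, adjusted p = 0.263), with -0.99 and -1.17 in Auto.Neg. Both were lower than WT in all 4 Auto.Neg and Auto.Pos samples, while Cd72 in Non-edited and Edited cells was 2.56 and 3.05. Sos2 (1.22) and Gsk3b (1.06, SE 0.81) followed. Gsk3b measured 0.84 and 0.76 for Auto.Pos against 1.00 and -1.51 for WT. Both Auto.Pos samples lay below WT sample 1, so its difference rested on WT sample 2. In Auto.Neg against WT, Nfatc3, a transcription factor of the calcium branch, measured 3.11 and 2.83 against 1.78 and 1.07 (1.54, SE 0.44, adjusted p = 0.90 by limma). Gsk3b, at 1.185 and 0.87 for Auto.Neg, differed by 1.29 (SE 0.81), which again rested on WT sample 2. Cd72 differed by -1.11. In Auto.Pos against Auto.Neg Pag1 differed by -0.97 and Ppp3ca by 0.91. In Edited against Non-edited cells Lck measured -0.49 against -2.35, a difference of 1.86 that was at least 2-fold in both dyes, the only such gene of the 91, followed by Ikbkg (0.90), Prkcq (-0.83) and Prkca (-0.82).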

How the data were processed

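RNA of 8 samples was amplified (100 ng of total RNA, per the labels) and hybridised on 16 arrays. Per the file headers, the authors deposited spot and background intensity written by Agilent Feature Extraction 9.1.1.1, 9.1.3.1 and 9.5.1.1, with a log10 ratio of red over green. The deposited series table holds a log2 ratio per array, and the submitters' processing notes name limma without a version. No further step is given in these sources. Intensity was analysed here in R 4.3.3 with limma 3.58.1: normexp (offset 50), loess (control spots given weight 0), removal of outlier spots, ratios turned to sample over reference and pairs averaged. Probes well above background in the sample channel of both arrays of at least 2 of 8 samples were kept (29640 of 41174), and the brightest per gene was used. limma was fitted to all 8 samples (3 residual and 2.11 prior degrees of freedom), with Benjamini-Hochberg adjustment over 20514 genes. The limma fit and the turning and averaging of a dye pair were tested on simulated log ratios, with noise independent between samples. The other steps were not. The number of arrays limits the precision. Values were printed per sample for the 6 genes of largest difference in each comparison, and at most 4 other pathway genes were named in each, of which some are not reported here. The genes and lists were chosen with earlier results of these data known. The alternatives were other backgrounds, normalizations, filters, probe rules, blocks and left-out samples, and the series table as labelled and rematched. Without both samples of slide 2, the crossed pairing and the fit per probe were chosen after seeing the data. The table has 0 columns of no sample. Its columns are centred near 0 (medians -0.019 to 0.018), and 8 ran opposite to the array they matched.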

Additional observations from a re-analysis of the deposited data

How the results depend on the processing

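None of the 31 genes passed the adjusted threshold in any alternative run, except the 11 of Auto.Pos against WT with scan day as a random block. The number of all genes past the threshold was unstable. In Auto.Pos against Auto.Neg the 3 genes became 1 with median centring. They became 0 with scale normalization, without the dim filter and with the series table as labelled. With the protocol of the file headers as a block they became 6, and with scan day as a block 39. In Auto.Pos against WT the 0 became 15 with Agilent's log ratio, 6 with scale normalization, 14 with the rematched table and 4185 with scan day as a block, and in Auto.Neg against WT 1 with the rematched table and 449 with scan day as a block. In Edited against Non-edited cells, the 284 genes at least 2-fold apart in both dyes became 810 with Agilent's log ratio. A limma fit that took the spread from the other groups, and so assumed that these lone samples vary as those do, called 0 genes (241 at an unadjusted p under 0.05) and 0 of the 31. Slide as a random block could not be fitted, with 7 slides over 8 samples.

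Sample numbers did not pair the samples: deviations of same-numbered samples correlated at -0.788 between Auto.Neg and Auto.Pos, -0.279 between Auto.Neg and WT, and 0.251 between Auto.Pos and WT. With the replicate block 0 genes were called in Auto.Pos against Auto.Neg, 0 in each other comparison and 0 of the 31. With the crossed pairing 8 genes and 0 of the 31 were called in Auto.Pos against Auto.Neg.

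The median over the 31 genes moved most with scaling. In Auto.Pos against Auto.Neg it was -0.033 with Agilent's log ratio, -0.10 with median centring, -0.18 with scale normalization, -0.036 with the rematched table and -0.030 within slide 2. In Auto.Pos against WT it was -0.46 with scale normalization and 0.20 with the table as labelled. In Auto.Neg against WT it was -0.24 with scale normalization and ran from -0.15 to 0.13 when single samples were left out. In Edited against Non-edited cells it was 0.20 with median centring, where the median of all genes was 0.096.

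Direction turned for some genes. With scale normalization Syk was -0.14 and Malt1 -0.051 in Auto.Pos against WT. With the table as labelled, Pik3r1 was -1.03, Pik3ap1 1.21 and Malt1 -0.17 in Auto.Pos against Auto.Neg, Plcg2 0.29 and Vav1 0.048 in Auto.Pos against WT, and Grb2 0.39 in Auto.Neg against WT. In Auto.Neg against WT, the mean of all probes gave -0.059 for Pik3r1 and 0.83 for Bcl10, scan day as a block 0.00054 for Vav1, and leaving out slide 2 -0.055 for Pik3r1, 0.35 for Pik3ap1 and 0.033 for Vav1. Leaving out single samples gave -0.26 to 0.96 for Pik3r1, -1.18 to 0.52 for Pik3ap1 and -0.17 to 1.21 for Dapp1 in Auto.Pos against Auto.Neg. In Auto.Neg against WT it gave -0.055 to 1.17 for Pik3r1, -1.36 to 0.35 for Pik3ap1, -1.36 to 0.033 for Vav1 and -0.14 to 1.47 for Blk. The cause of these changes was not tested.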
